A study of Homo sapiens with 35 samples.

Results

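Binding of p52 at gene promoters after TWEAK was examined in U-87 MG, a human glioma cell line. A promoter p52 site was defined by merging overlapping peaks (1 bp or more) of the 2 p52 lists of TWEAK-treated control cells on chromosomes 1 to 22 and X. Merged sites were kept where both lists had a peak and the centre of the site fell near a GENCODE transcript start, at most 1000 bp before it or 100 bp after it. Of the 2910 p52 sites found in both lists, 611 met this definition, and the other 2299 are called non-promoter sites here. The sites were thus chosen on the p52 values of TWEAK-treated control cells, so p52 in those cells, and any contrast against them, is described without a test. RNA, RNA Pol II and ETS1 played no part in the choice.

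Control cells were either left untreated or given 10 ng/ml TWEAK for 48 h, and cells with CRISPR/Cas9-mediated knockdown (KD) of *ETS1* or *NFKB2* were all given TWEAK. All groups were of this 1 cell line. The p52 libraries of *ETS1* KD cells are labelled by guide (guides 1 and 2), whereas the labels of the RNA Pol II and RNA libraries of KD cells name none. ChIP-seq comprised 20 peak lists in 10 groups of 2 (8 p52, 4 ETS1 and 8 RNA Pol II), and RNA-seq comprised 12 libraries in 4 groups of 3 (untreated control, TWEAK control, TWEAK *ETS1* KD and TWEAK *NFKB2* KD). The methods call the RNA replicates biological. For ChIP-seq nothing states that the 2 libraries of a group came from separate cultures, so a p-value there measures only the spread between libraries, which may be technical.

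TWEAK is a cytokine of the TNF family and a known trigger of the non-canonical NF-κB pathway. Its receptor stabilises the kinase NIK, NIK activates IKKα, and the p100 protein encoded by *NFKB2* is cut to p52. p52 enters the nucleus mainly as a dimer with RelB and binds κB sequences, many of which lie in promoters of immune genes, of NF-κB subunits and of the inhibitors that restrain them. ETS1 is a transcription factor of another family with a purine-rich core motif.

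The RNA libraries held between 28384201 and 40192606 counts, and no pair of replicates agreed within sampling noise. The mesenchymal and glioma genes *VIM* (9088 to 17685 CPM, counts scaled by library size), *CD44*, *FN1*, *NES*, *SPARC* and *CHI3L1* were present in every library. The astrocyte marker *GFAP* stayed between 0.0579 and 0.365 CPM, *SOX2* between 0 and 0.0555 CPM and *S100B* between 0 and 0.154 CPM. Of the markers of other cell types, *RBFOX3* and *MLANA* were at 0 in all 12 libraries, *PTPRC* reached 0.0922 CPM and *SYT1*, the highest, reached 18.2 CPM.

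The sequences below the summits are shown first, since they carry the feature that most of the sites shared. Each is the plus strand of hg38, read 5′ to 3′, with matches to the NF-κB (κB) consensus on either strand in capitals. Where GENCODE annotates no UTR under the summit, the summit and 40 bases on each side are given. *RELB* (chr19:45001299-45001379) is p52's main partner, and its window lies upstream of the gene, outside any exon. The 2 *TNIP1* windows (chr5:151087172-151087252 and chr5:151094201-151094281) belong to alternative starts of an NF-κB inhibitor, the former within an intron of longer transcripts. The windows of the neighbouring chemokine genes *CXCL2* (chr4:74099227-74099307) and *CXCL3* (chr4:74038722-74038802) are set together because they resemble each other (the latter under an exon of a transcript annotated without UTR), with 59 of 81 bases identical by position. *MMP9* (chr20:46008253-46008333) and *IRF1* (chr5:132490814-132490894) are genes whose RNA rose and that differ in Pol II at the p52 site, as the heat map of fold enrichment shows.

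RELB: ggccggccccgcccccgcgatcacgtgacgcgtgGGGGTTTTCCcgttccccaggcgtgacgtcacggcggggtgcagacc
TNIP1 near start: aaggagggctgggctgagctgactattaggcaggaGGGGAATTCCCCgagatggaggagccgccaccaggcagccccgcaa
TNIP1 far start: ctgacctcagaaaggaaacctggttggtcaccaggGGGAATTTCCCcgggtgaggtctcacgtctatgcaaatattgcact
CXCL2: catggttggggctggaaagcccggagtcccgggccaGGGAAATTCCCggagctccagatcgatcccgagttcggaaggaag
CXCL3: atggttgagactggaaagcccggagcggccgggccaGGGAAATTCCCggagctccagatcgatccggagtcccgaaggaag
MMP9: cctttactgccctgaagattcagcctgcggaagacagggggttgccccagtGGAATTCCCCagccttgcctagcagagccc
IRF1: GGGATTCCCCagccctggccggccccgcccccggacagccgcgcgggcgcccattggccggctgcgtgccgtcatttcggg

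Where the window overlapped an annotated UTR of some transcript, and at *B2M*, where it overlapped an exon, only the match and 6 bases on each side are printed. These are the pair of matches at *NFKB2* itself (chr10:102394465-102394487 and chr10:102394494-102394515), and those at the subunit gene *REL* (chr2:60881521-60881543), the inhibitor genes *NFKBIA* (chr14:35403957-35403978) and *NFKBIB* (chr19:38899935-38899957), *IL32* (chr16:3065298-3065320), *TNFRSF9* (chr1:7940897-7940919) and *B2M* (chr15:44711386-44711407). They show how the same core recurs with small changes.

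NFKB2 first: cgtcatGGGAATTCCCCcctccg
NFKB2 second: cgagaaGGGGCTTTCCcggccc
REL: agccgcGGGAAATTCCCctcccg
NFKBIA: cgcccaGGGACTTTCCgccccc
NFKBIB: gtggtgGGGAATTTCCCgcaggg
IL32: tactcaGGGAGTTTCCCcagcca
TNFRSF9: tctcatGGGAAATTCCCaccaca
B2M: aaaacgGGAAAGTCCCtctctc

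The 611 sites had a median width of 498 bp (208 to 4276 bp). Their fold enrichment, the height of the peak over the background as the peak caller gave it, had a median of 8.21 in replicate 1 (2.58 to 61.7) and 18.1 in replicate 2 (1.60 to 124). Summits of the 2 replicates lay a median of 11 bp apart, and 87.6% of sites had them within 50 bp of each other, compared with 92.3% of non-promoter sites. The summit lay a median of 137 bp upstream of the start (−137 bp, with quartiles of −422 and −27 bp). Promoter sites made up 20 of the 100 strongest peaks in replicate 1 and 28 of the 100 strongest in replicate 2. Among the 1000 strongest their shares were 19.1% and 21.9%. For comparison, they were 611 of the 2910 sites found in both lists.

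The values just inside the window did not stand apart from those just outside it. Inside, the centre of the site at *RRAS* lay at 97 bp downstream (fold enrichment of 4.44 and 9.62 in replicates 1 and 2) and that at *PPFIBP1* at −994.5 bp (7.16 and 9.67). Outside, the site at *PKM* lay at 101 bp (4.14 and 7.75) and a site at a *Y_RNA* copy at −1022.5 bp (5.37 and 8.19). Together the 611 sites carried the starts of 737 genes, of which 523 were protein-coding and 157 were lncRNA genes. A single gene was assigned to 489 sites and 2 or more to 122, and 40 sites lay between protein-coding genes on both strands, where p52 cannot be assigned to either gene. In all, 9 genes held more than 1 site, among them *TNIP1* with 3 and *BCL3* and *BBC3* with 2 each.

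The κB consensus lay within 100 bp of the summit at 436 of the 611 promoter sites (71.4%). The share at non-promoter sites was 72.7%. By contrast, it was 4.64% at 1012 promoter sites of ETS1, and 3.87% of windows of the same length at 19016 protein-coding starts. Where present, the match was centred a median of 5.5 bp from the summit, and it lay within 10 bp at 282 sites (64.7% of those with a match, against 75.6% of non-promoter sites). These shares describe where the letters occur and carry no test.

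**Figure D1:**
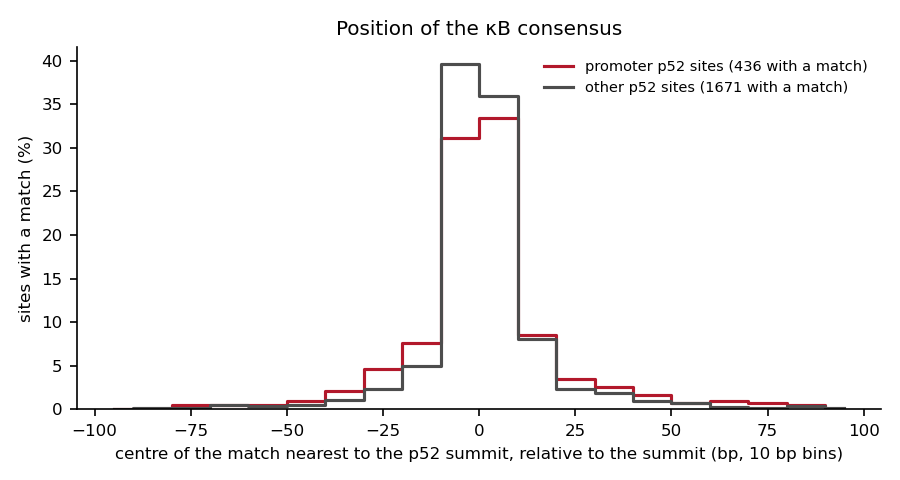
Distance in bp from the p52 summit to the centre of the nearest κB match, in bins of 10 bp, for promoter and non-promoter p52 sites as a percent of sites. In both sets the matches pile up at the summit, with a median distance of 5.5 bp at promoter sites and 3.5 bp at non-promoter sites.

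Among the promoter sites 50 different κB words occurred, of which GGGACTTTCC and GGGGAATTCC were the most common at 41 sites each. With the sites ranked by peak strength and split into 4 equal groups, the share with a match was 83.0% in the strongest group, then 73.2% and 65.4%, and 63.8% in the weakest. The G-rich word GGGGNNTCC, which overlaps the κB consensus in part, occurred at 27.3% of promoter sites and 12.8% of non-promoter sites, beside 6.17% of protein-coding starts. The AP-1 word TGANTCA had the opposite order, with 11.5% of promoter sites and 27.4% of non-promoter sites (3.02% of starts). Promoter sites were also rich in GC, with a median of 62% over the 200 bp compared with 48.5% at non-promoter sites, and GGGCGG, the core of the GC box, was found at 42.9% and 9.18% respectively (54.4% of starts). The ETS word CTTCCGG occurred at 4.91% of promoter p52 sites, below the 11.3% of all protein-coding starts and the 14.0% of ETS1 promoter sites. All words were searched on both strands.

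Few of these promoters had a p52 peak without TWEAK. A peak of untreated cells overlapped 9 sites in replicate 1 (1.47%) and 6 in replicate 2 (0.982%), and 9 of 611 sites were met in either list (exact 95% binomial interval of 0.676 to 2.78%, which covers counting error only). The share of non-promoter sites was 4.31%. The untreated lists were short, with 714 and 452 peaks, compared with 3579 and 11761 after TWEAK. Of these 9 sites, 3 lay at ribosomal RNA genes (*RNA5S6*, *RNA5S11* and *5_8S_rRNA*), and the remainder included the glycolysis gene *PGK1*, the small nuclear RNA gene *RNU6-1* and the elongation factor gene *EEF1A1*.

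The 2 promoter sites with the strongest ranks after TWEAK, *PGK1* and *RNU6-1*, were among them. At *PGK1* the p52 fold enrichment was 24.0 and 8.37 in untreated cells, 31.3 and 65.8 after TWEAK, 20.2 and 89.1 in *ETS1* KD cells of guide 1, and 158 and 508 in those of guide 2. At *RNU6-1* it was 3.83 and 5.93, then 26.0 and 49.4, then 18.7 and 122, and 129 and 324. Both also had ETS1 peaks in both TWEAK libraries, and neither window held a κB match. Multicopy genes such as *RNU6-1* share reads with near-identical copies, so their values are uncertain. The knockdowns of the study used lentiviral vectors. Whether the reads at *PGK1*, *RNU6-1* and *EEF1A1* came from the genomic copies was not tested, so these ranks need not reflect p52 at the genes themselves. The *PGK1* RNA differed by −0.09 on the log2 scale after TWEAK (edgeR adjusted p = 0.869).

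The share of promoter sites with a p52 peak in *ETS1* KD cells differed between libraries. It was 40.1% and 83.0% in the libraries of guide 1, and 83.8% and 83.1% in those of guide 2. Guide 1 replicate 1 was the lowest, and its list was also the shortest, with 1387 peaks against 3897 to 4252 in the other 3. A peak in all 4 KD libraries was found at 245 sites (40.1%). The mean share of 72.5% was 27.7% when sites were defined without TWEAK control p52 replicate 1, which gave 2252 sites. With every p52 list shortened to its 452 strongest peaks, the share was between 14.6% and 17.5% in the KD libraries, beside 15.7% and 17.0% in the TWEAK control libraries. This cut keeps only the strongest peaks of each list, so it cannot show a loss at weaker sites or of binding as a whole. Non-promoter sites gave 39.9% and 78.8% for guide 1 and 78.0% and 78.5% for guide 2.

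At 3 leading promoters the fold enrichment in KD cells spanned much of the range of control cells or lay above it. *NFKB2*, the third-ranked site, had values of 46.0 and 93.9 in TWEAK control cells, 51.1 and 141 for guide 1 and 125 and 115 for guide 2. *RELB* had 26.3 and 50.5, then 18.8 and 43.7, and 76.4 and 54.2. The site shared by *B2M* and *PATL2* had 33.7 and 81.3, then 71.2 and 135, and 97.3 and 95.7. Lists were scaled separately, so these values are given side by side and their order carries no test. No p52 peak was found in any of the 4 KD libraries at 54 promoter sites (8.84%, interval of 6.71 to 11.4%, compared with 11.3% of non-promoter sites). The complement gene *C3* was among these 54, with 5.29 and 12.7 in control cells.

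**Figure D2:**
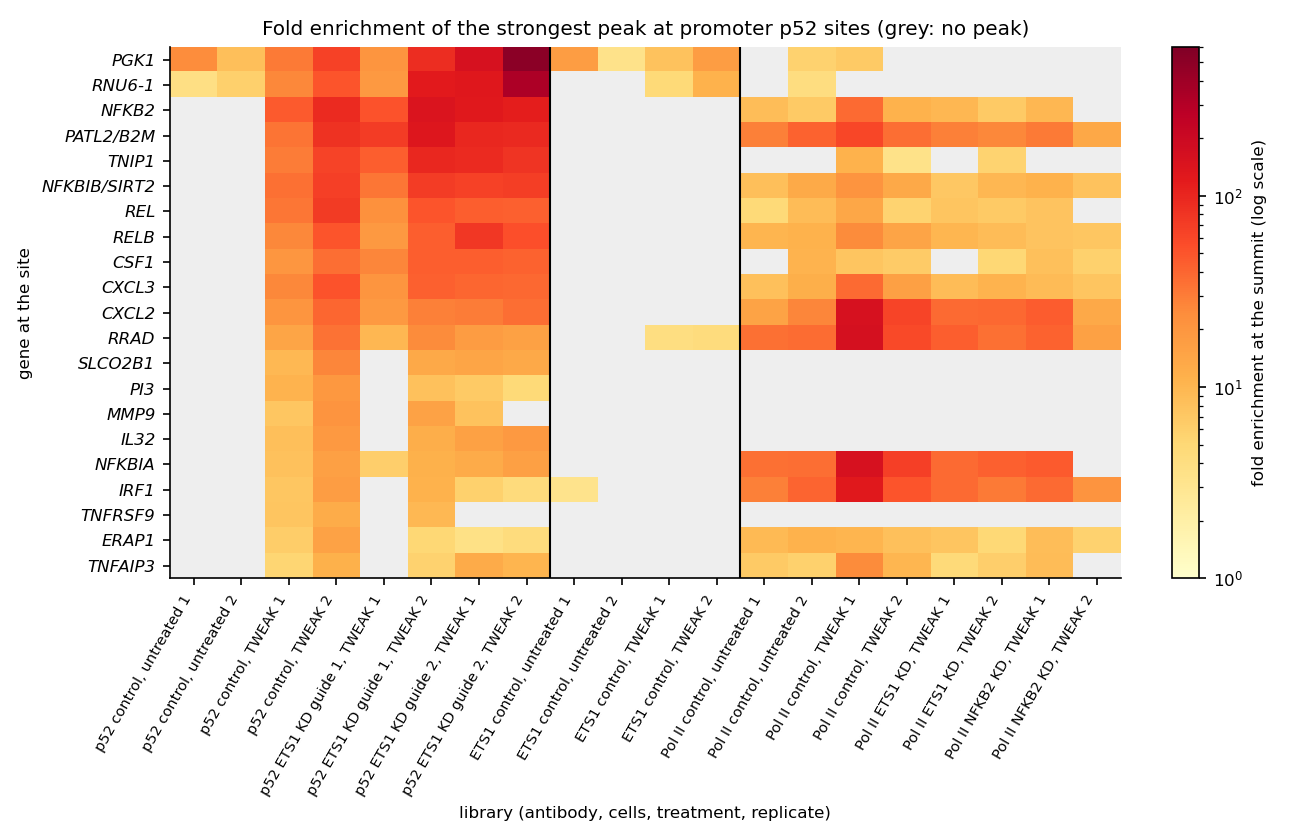
Fold enrichment (log colour scale) at named promoter p52 sites (rows) in each of the 20 ChIP-seq libraries (columns), with grey where the list had no peak. Except at *PGK1* and *RNU6-1*, the untreated p52 columns are grey, and the rows of *IL32*, *MMP9*, *PI3*, *SLCO2B1* and *TNFRSF9* are grey in all 8 Pol II columns.

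ETS1 peaks were found at few of the promoter p52 sites. The share was 11.5% and 5.56% in untreated cells and 9.66% and 7.36% after TWEAK. The groups overlapped and had the same mean of 8.51% (exact permutation test of 2 against 2 libraries, two-sided p = 1). The smallest p that this design allows is 0.33. An ETS1 peak in both TWEAK libraries was present at 34 sites, and 512 sites (83.8%) had none in any of the 4 libraries. At 5 sites ETS1 was found in both TWEAK libraries and in neither untreated library, namely at *RNU6-1*, *RRAD*, *CDCA7L*, *C16orf46* and *PLEKHG2*.

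Over the promoter windows of all protein-coding genes, 0.626% gained ETS1 by that definition and 0.216% lost it. Each window lay at the main start of its gene, and the p52 site of a gene can lie at another start. Of the 510 windows of genes with a promoter p52 site, 3 gained ETS1 (0.588%) and 4 lost it (0.784%). An ETS1 peak in both TWEAK libraries was found at 6.47% of the 510 windows and at 4.28% of all. In the 4 ETS1 libraries the share at promoter p52 sites was higher than at non-promoter sites in 4 of 4 (8.51 ± 2.58% against 5.28 ± 0.579%, SD, n = 4 libraries, paired exact permutation test over libraries, two-sided p = 0.125, the smallest possible). Promoter and non-promoter sites were divided by distance to a start, so that test cannot tell p52 sites from promoters in general. No peak of any p52 list lay in the windows of the 8 annotated *ETS1* starts, from 1000 bp upstream to 100 bp downstream. The paper reports p52 enrichment at the *ETS1* promoter after TWEAK from signal tracks, a measure that lists of called peaks do not hold. The window of the main *ETS1* start had no Pol II peak in any library either, so a missing peak there need not mean missing binding. Windows of *ERN1* starts held p52 in only the TWEAK control replicate 2 (fold enrichment of 9.97), so neither gene was among the 737.

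RNA Pol II marked the promoter sites far more often than the other p52 sites. Its share over the 8 libraries was 51.5 ± 8.71% at promoter sites and 13.7 ± 3.38% at non-promoter sites (SD, n = 8 libraries), a difference of 37.8 percentage points in the same direction in 8 of 8 libraries. The paired exact permutation test over libraries gave a two-sided p of 0.00781, the smallest possible, and 0.0156 after Benjamini-Hochberg adjustment over the tests for Pol II and ETS1. The difference was 34.0 points with lists of equal number. The test cannot tell p52 sites from promoters in general, because the sites were divided by distance to a transcript start. Every library was also scored on the same sites. Over promoter windows at main starts of protein-coding genes, Pol II in both TWEAK libraries was found at 67.8% for genes with a p52 site. The share of all such windows was 40.3%. A window need not hold the p52 site of its gene.

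Between conditions, the share with Pol II was 42.1% and 61.4% in untreated cells, 62.0% and 57.0% after TWEAK, 47.6% and 50.2% in *ETS1* KD cells and 53.7% and 38.0% in *NFKB2* KD cells. The TWEAK and untreated groups overlapped (difference of 7.77 points, exact permutation test, two-sided p = 0.667). Both KD groups lay below the TWEAK control group without overlap, by 10.6 points for *ETS1* KD (−10.6) and 13.7 points for *NFKB2* KD (−13.7), each with an exact permutation p of 0.33, which this design cannot go below. With lists cut to 11175 peaks the differences were −8.92 and −7.69 points. Promoter windows of all protein-coding genes went the same way. Pol II in both libraries of a group was found at 40.3% of them for TWEAK control, 33.6% for *ETS1* KD and 30% for *NFKB2* KD. Windows of genes with a promoter p52 site gave 67.8%, 58.8% and 51.4% in that order. The lower shares after KD were thus not confined to genes with a promoter p52 site.

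**Figure D3:**
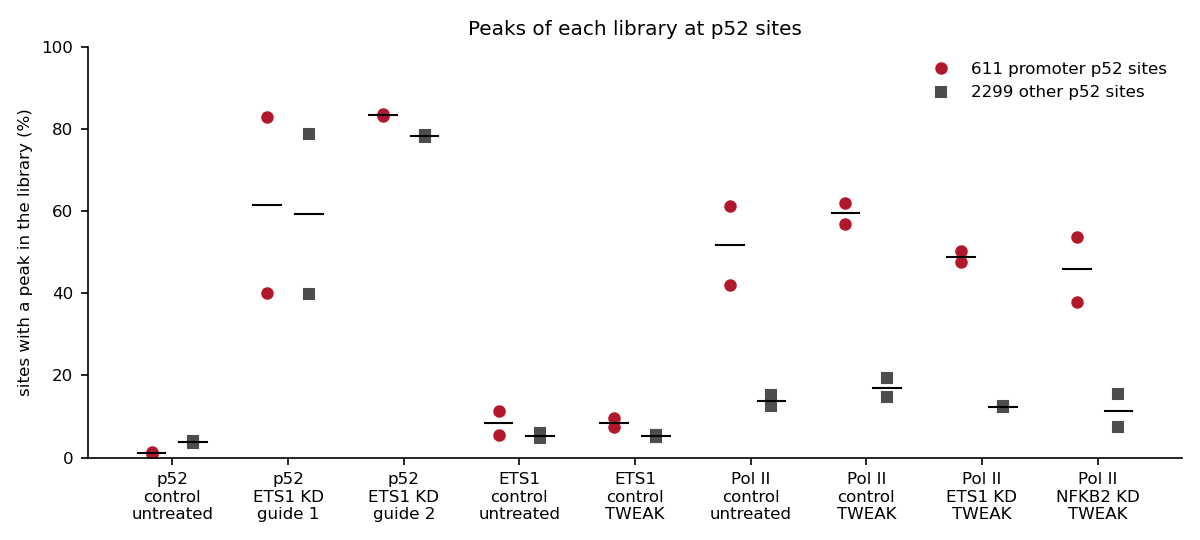
Percent of promoter (circles) and non-promoter (squares) p52 sites overlapped by a peak in each ChIP-seq library, by group, with lines at the mean of the 2 libraries. Pol II shares of promoter sites lie between 38.0% and 62.0%, above the non-promoter shares of 7.53% to 19.3% in all 8 libraries, while ETS1 shares stay at or below 11.5%.

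A Pol II peak in both TWEAK libraries was present at 327 promoter p52 sites (53.5%), and 162 sites (26.5%) had Pol II in all 8 libraries. By contrast, 184 sites (30.1%) had none in any control library, beside 74.9% of non-promoter sites. At 12 sites Pol II was found in both TWEAK libraries and in neither untreated library, among them *TNIP1*, *CD83*, *GSN* and *NEDD4L*. Of the 510 windows of genes with a promoter p52 site, 6 gained Pol II by that definition (1.18%) and 0 lost it. Over the windows of all 19016 protein-coding genes, 0.615% gained it and 0.189% lost it. Pol II in both TWEAK libraries was found at 67.8% of these 510 windows and at 40.3% of all.

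The height of Pol II was compared at windows with a peak in all 4 control libraries, which was the case for 263 windows of genes with a p52 site. The fold enrichment was higher in both TWEAK libraries than in both untreated libraries at 71 of them (27.0%), compared with a background of 17.2% of 5616 windows. It was lower in both at 1 (0.380%), with a background of 3.15%. Ranks within each list, which do not depend on the scale of a list, were stronger in both TWEAK libraries at 76 windows (28.9%, background of 21.3%) and weaker at 17 (6.46%, background of 13%). This is a count of windows without overlap between 2 libraries and 2, and no test over windows was made.

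Among windows whose rank was stronger in both TWEAK libraries, the ratio of the mean TWEAK to the mean untreated fold enrichment was largest at *CXCL2* (5.31), followed by *NFKB2* (3.66), *SERPINE2* (3.26), *NFKBIA* (3.2) and *RRAD* (3.04). At *CXCL2* the Pol II fold enrichment was 15 and 26.5 in untreated cells, 159 and 61.7 after TWEAK, 38.1 and 38.5 in *ETS1* KD cells and 45.7 and 13.4 in *NFKB2* KD cells. At *NFKBIA* it was 35.0 and 36.0, 159 and 67.7, 37.8 and 43.5, and 45.9 with no peak in *NFKB2* KD replicate 2. The KD values were those at the p52 site. At *NFKBIA* its summit lay 810 bp downstream of the main start, so a missing peak there does not show that the main start lacked Pol II. In the windows of both genes the TWEAK libraries lay above the untreated ones. The alternative start of *TNIP1* with the strongest p52 peak, outside these windows, had no Pol II peak in either untreated list and values of 10.8 and 3.43 after TWEAK. TWEAK replicate 1 had the highest values, and its list was also the longest, with 44672 peaks against 27056 in replicate 2.

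The RNA of these genes was compared next. The count table listed all 737 genes, and 577 of them (78.3%) passed the filter on low counts and were tested among 16879 genes in a single edgeR quasi-likelihood model, with Benjamini-Hochberg adjustment over all genes tested. Log2 fold changes are given ± SE. The 160 genes left out had too few counts for a test. A gene counted as raised or lowered where the adjusted p was below 0.05.

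*NFKB2* and *ETS1* checked the knockdowns. *NFKB2* RNA was 49.6, 54.5 and 66.6 CPM in untreated cells, 235, 289 and 346 CPM after TWEAK, 209, 234 and 273 CPM in *ETS1* KD cells, and 75.6, 92.6 and 105 CPM in *NFKB2* KD cells. The *NFKB2* KD libraries thus lay below both other TWEAK groups, and above the untreated libraries. *NFKB2* rose with TWEAK (log2 fold change 2.35 ± 0.18, adjusted p = 2.92e-05) and fell in *NFKB2* KD cells relative to the TWEAK control cells (−1.67 ± 0.18, adjusted p = 0.00339).

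*ETS1* RNA was 42.0, 41.3 and 45.1 CPM in untreated cells, 71.9, 73.1 and 87.6 CPM after TWEAK, 28.2, 33.0 and 37.8 CPM in *ETS1* KD cells and 67.0, 48.8 and 65.4 CPM in *NFKB2* KD cells. It rose with TWEAK (0.86 ± 0.15, adjusted p = 0.0076) and fell in *ETS1* KD cells (−1.23 ± 0.15, adjusted p = 0.0011). The *ETS1* KD libraries lay below every other library. *ERN1*, which is no member, differed by 0.74 ± 0.24 after TWEAK (adjusted p = 0.136).

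Of the 577 genes, 36 rose after TWEAK (6.24%, against 1.55% of all genes tested) and 9 fell (1.56%, against 1.53%). Among protein-coding genes alone, 33 of 491 rose (6.72%, against 1.73%). The median log2 fold change was 0.08 for the 577 genes and 0.02 for all genes, with 63.8% and 53.3% above 0. With the study's thresholds (unadjusted p of 0.05 and a fold change of 1.5) applied to the same model, 49 rose (8.49%, against 3.3%) and 13 fell (2.25%, against 3.79%). In bulk RNA, fewer cells with a transcript and less of it per cell cannot be told apart.

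The number of calls rested on several libraries. It was 45 with all of them, and 18 without untreated replicate 1, 16 without untreated replicate 2, 20 without TWEAK replicate 2 and 16 without TWEAK replicate 3. The genes called in every one of the 6 models that left out a library were 13 of those that rose (*MMP9*, *IL32*, *PI3*, *SLCO2B1*, *CXCL3*, *LINC00944*, *NFKB2*, *TNFRSF9*, *ENSG00000259712*, *CXCL2*, *RELB*, *NFKBIA* and *RRAD*) and 2 of those that fell (*DPP4* and *CYRIA*). The other 30 calls were lost in at least 1 of these models.

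**Figure D4:**
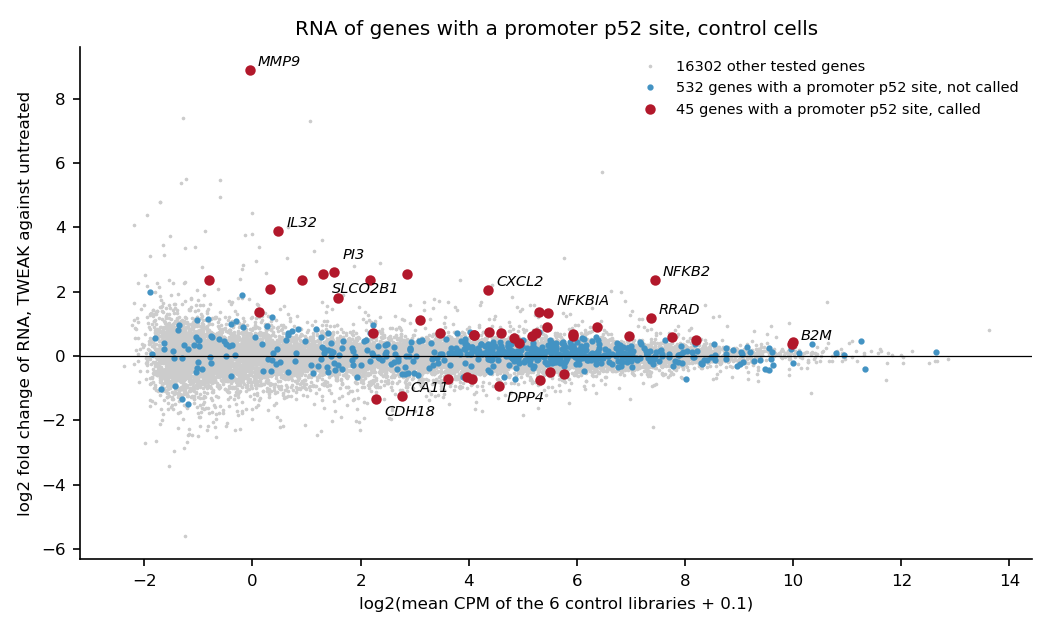
Log2 fold change of RNA after TWEAK (y axis) against the average level in log2 CPM (x axis), with 532 genes with a promoter p52 site that were not called, 45 that were called and 16302 other genes. More of the called genes lie above 0 (36) than below it (9).

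Of the 5 NF-κB subunit genes, 3 carried a promoter p52 site (*NFKB2*, *REL* and *RELB*), and the subunits *NFKB2* and *RELB* rose with TWEAK. *RELB* RNA was 18.6, 22.4 and 24.9 CPM in untreated cells and 49.3, 56.7 and 62.8 CPM after TWEAK, with no overlap (1.36 ± 0.15, adjusted p = 0.000437). It was 37.4, 45.4 and 43.6 CPM in *ETS1* KD cells and 29.3, 38.6 and 36.9 CPM in *NFKB2* KD cells, below every TWEAK control library, although neither KD comparison passed the test. *REL*, with a p52 fold enrichment of 32.5 and 72.9 and the κB match shown above, differed by 0.40 ± 0.32 (adjusted p = 0.665). The strength of the site and the RNA call thus did not go together for this gene.

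Of the 12 IκB proteins and feedback inhibitors, all tested, 5 carried a promoter p52 site and 7 rose, of which *NFKBIA*, *NFKBIB* and *TNIP1* had a site. *NFKBIA*, which holds NF-κB dimers in the cytoplasm, was 23.8, 26.0 and 25.8 CPM in untreated cells and 56.5, 59.8 and 73.4 CPM after TWEAK (1.33 ± 0.15, adjusted p = 0.00051). *TNIP1*, a ubiquitin-binding inhibitor with 3 sites, went from 161, 158 and 201 CPM to 232, 259 and 295 CPM (0.60 ± 0.12, adjusted p = 0.0213). The groups did not overlap for either gene. *TNFAIP3*, which encodes the deubiquitinase A20, and the nuclear IκB protein gene *BCL3* had sites but differed by 0.53 ± 0.22 (adjusted p = 0.284) and 0.02 ± 0.43 (adjusted p = 0.993).

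A single site lay between *NFKBIB* and *SIRT2*, genes that start close together on opposite strands, and their RNA moved in opposite directions. *NFKBIB*, an IκB protein, was 23.4, 21.8 and 23.6 CPM in untreated cells and 34.9, 34.8 and 31.9 CPM after TWEAK (0.56 ± 0.11, adjusted p = 0.0155). *SIRT2*, a deacetylase chosen for description after its values were seen because it shares the site, was 53.6, 54.3 and 52.1 CPM and then 40.2, 37.3 and 35.6 CPM (−0.50 ± 0.11, adjusted p = 0.0274). Where such genes overlap, reads can be told apart only by strand, and the strand setting of the counting is not given in the sources used here. None of the 18 genes of the TWEAK receptor and its signalling chain carried a promoter p52 site, although 6 of them rose (*TRAF1*, *TRAF2*, *TRAF3*, *BIRC2*, *BIRC3* and *MAP3K14*).

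Of 30 chemokine and cytokine genes, 23 were tested and 10 rose, and 4 of the 30 carried a promoter p52 site. *CXCL2*, a neutrophil attractant, was 7.30, 7.16 and 9.56 CPM in untreated cells, 25.4, 32.3 and 41.2 CPM after TWEAK, 11.3, 12 and 14.2 CPM in *ETS1* KD cells and 15, 10.6 and 21.8 CPM in *NFKB2* KD cells. It rose with TWEAK (2.04 ± 0.25, adjusted p = 0.000733) and fell in *ETS1* KD cells (−1.40 ± 0.24, adjusted p = 0.0109), the latter call being lost without *ETS1* KD replicate 1 or 2 or TWEAK control replicate 3 (log2 fold changes of −1.35, −1.38 and −1.21). In *NFKB2* KD cells all 3 libraries lay below the TWEAK control libraries, but the difference did not pass the test (adjusted p = 0.408).

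Its neighbour *CXCL3* was 1.60, 2.03 and 2.66 CPM in untreated cells and 8.79, 10.2 and 17.6 CPM after TWEAK (2.54 ± 0.33, adjusted p = 0.00105). The pair are similar in sequence, so their counts may be shared in part. *IL32*, a cytokine of lymphocytes and epithelia, was 0.174, 0.0922 and 0.219 CPM and then 1.94, 2.14 and 3.22 CPM (3.89 ± 0.35, adjusted p = 0.000126), and in KD cells it was 3.61, 2.51 and 3.69 CPM (*ETS1* KD) and 6.98, 5.74 and 5.02 CPM (*NFKB2* KD). The macrophage growth factor gene *CSF1* had p52 peaks of 19.8 and 36.2 but a log2 difference of 0.01 ± 0.28 (adjusted p = 0.994).

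Of the adhesion, matrix and protease genes, 3 of 19 carried a site and *MMP9* was the member that rose. *MMP9*, a gelatinase, had 0 counts in all 3 untreated libraries and 0.646, 1.27 and 3.28 CPM after TWEAK, which is at least 17.9-fold higher than a floor of 3 counts per untreated library (adjusted p = 0.00328). *SERPINE2*, a protease inhibitor, differed by 0.25 ± 0.12 (adjusted p = 0.358) and the syndecan gene *SDC4* by −0.14 ± 0.12 (adjusted p = 0.691). *PI3*, the elastase inhibitor elafin, outside that list, was 0.764, 0.738 and 0.781 CPM in untreated cells and 4.95, 4.08 and 5.14 CPM after TWEAK (2.63 ± 0.20, adjusted p = 2.92e-05).

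Genes of antigen presentation moved by small amounts. Of 17 MHC class I and immunoproteasome genes, 3 carried a site and 3 rose, of which *B2M* and *ERAP1* had a site. *B2M*, the light chain of class I molecules, was 907, 880 and 850 CPM in untreated cells and 1135, 1186 and 1094 CPM after TWEAK (0.37 ± 0.09, adjusted p = 0.0432). The groups did not overlap, but the call was lost under 8 of 10 alternative settings. *ERAP1*, which trims peptides for class I, rose by 0.62 ± 0.14 (adjusted p = 0.0331).

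Of the TNF family and survival genes, 3 of 20 had a site, and *TNFRSF9*, a costimulatory receptor, was the member that rose, from 1.36, 1.60 and 1.41 CPM to 5.81, 6.25 and 10.2 CPM (2.35 ± 0.26, adjusted p = 0.000437). *MCL1* and *BCL2L1*, which protect against apoptosis, differed by 0.37 ± 0.11 (adjusted p = 0.0849) and 0.03 ± 0.10 (adjusted p = 0.936). Of 28 transcription factor genes of the ETS, AP-1, IRF and STAT families, 3 had a site, among them *IRF1* and *ELF1*. *IRF1*, an activator of interferon genes, was 26.9, 28.9 and 31.0 CPM and then 39.3, 46.7 and 55.4 CPM (0.70 ± 0.13, adjusted p = 0.0133). *ELF1*, with stronger p52 peaks than *IRF1* (15.6 and 44.8 against 7.24 and 17.1), differed by −0.18 ± 0.19 (adjusted p = 0.758). *IFIT3* and *OAS3*, the interferon-stimulated genes with a site, differed by 0.38 ± 0.25 (adjusted p = 0.58) and 0.46 ± 0.13 (adjusted p = 0.089). None of the 12 unfolded protein response genes had a site.

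Other genes with large rises had a variety of functions. *SLCO2B1*, an organic anion transporter, was 0.660, 0.768 and 0.656 CPM in untreated cells and 3.55, 4.28 and 4.36 CPM after TWEAK (2.54 ± 0.26, adjusted p = 0.000249), with no κB match in its window. The ubiquitin ligase gene *NEURL3* rose by 2.38 ± 0.55 (adjusted p = 0.0356), and the lncRNA genes *LINC00944* and *ENSG00000259712* rose by 2.37 ± 0.22 (adjusted p = 0.000144) and 2.07 ± 0.33 (adjusted p = 0.00483). Of the genes that rose outside the rule for named genes, chosen after their values were seen, *RRAD*, a small GTPase gene, went from 92.3, 98.0 and 111 CPM to 239, 235 and 214 CPM (1.19 ± 0.12, adjusted p = 0.000193). The immune ligand *CD70* rose by 0.71 ± 0.12 (adjusted p = 0.00836), the pentraxin *PTX3* by 0.66 ± 0.12 (adjusted p = 0.0124) and the cytokine receptor *IL7R* by 1.80 ± 0.34 (adjusted p = 0.0138).

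Fewer genes fell, at a share near that of all genes. *CDH18*, a cadherin gene, was 7.78, 6.79 and 5.88 CPM in untreated cells and 3.30, 3.01 and 1.75 CPM after TWEAK (−1.35 ± 0.26, adjusted p = 0.0147). *DPP4*, a cell-surface peptidase, was 32.1, 32.6 and 27.0 CPM and then 15.2, 16.9 and 16.4 CPM (−0.92 ± 0.11, adjusted p = 0.000719). The untreated libraries lay above the TWEAK libraries for both. *CA11*, *CYRIA* and *ARHGAP24* fell by 1.24, 0.75 and 0.70 on the log2 scale (adjusted p = 0.0127, 0.0051 and 0.0132).

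The calls were spread unevenly over the classes of site. Of 413 tested genes with a κB match in the window of a site, 34 rose (8.23%) and 8 fell, while of 167 with a site without a match 2 rose (1.20%), *SLCO2B1* and *ESPL1*, and 1 fell. By rank of the site, 15 of 150 genes in the strongest of the 4 groups rose (10.0%), then 9 of 142 (6.34%), 10 of 158 (6.33%) and 3 of 132 in the weakest (2.27%). With Pol II in both TWEAK libraries 23 of 368 rose (6.25%), and without it 13 of 211 did (6.16%). With ETS1 in both TWEAK libraries 1 of 26 rose (3.85%), and otherwise 35 of 551 (6.35%). These are counts, genes near 2 sites can stand in both classes, and the difference by κB match of 7.03 points fell to 2.53 points without untreated replicate 2, and to between 2.54 and 3.25 points without untreated replicate 1, TWEAK replicate 2 or TWEAK replicate 3.

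Of the 10 tested protein-coding genes at the 12 strongest promoter sites, 3 rose (30%, beside 6.24% of all 577 genes), namely *NFKB2*, *B2M* and *TNIP1*, and *PGK1*, *PATL2*, *HILPDA*, *GPBP1*, *C20orf144*, *NECAB3* and *AIM2* were not called (log2 differences of −0.36 to 0.66, lowest adjusted p = 0.332). The 10 genes with the largest rises had p52 values from below the median of all sites, as at *TNFRSF9*, to near the strongest, as at *NFKB2*. The fold enrichment in replicates 1 and 2 was 46.0 and 93.9 at *NFKB2*, 26.3 and 50.7 at *CXCL3*, 14.9 and 37.2 at *LINC00944* and 12.2 and 34.4 at *NEURL3*. It was 8.46 and 18.9 at *IL32*, 7.23 and 20.6 at *MMP9*, 10.7 and 19.2 at *PI3*, 9.67 and 26.8 at *SLCO2B1*, 9.20 and 18.3 at *ENSG00000259712* and 7.43 and 12.4 at *TNFRSF9*, beside medians of 8.21 and 18.1 over the 611 sites.

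Pol II peaks were also missing from many of those p52 sites, and Pol II elsewhere in the promoter was not counted here. Of the 10 genes with the largest rises, 6 (*MMP9*, *IL32*, *PI3*, *SLCO2B1*, *NEURL3* and *TNFRSF9*) had no Pol II peak at the site in any of the 8 libraries, compared with 108 of all 577 tested genes (18.7%) and 9 of the 36 that rose (25%). Pol II was called in all 8 libraries at 15 of the 36 (41.7%) and at 196 of the 577 (34.0%). The RNA of these 6 genes was low, at most 10.2 CPM in the TWEAK control libraries. A peak below the caller's threshold cannot be told from no Pol II in these lists.

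**Figure D5:**
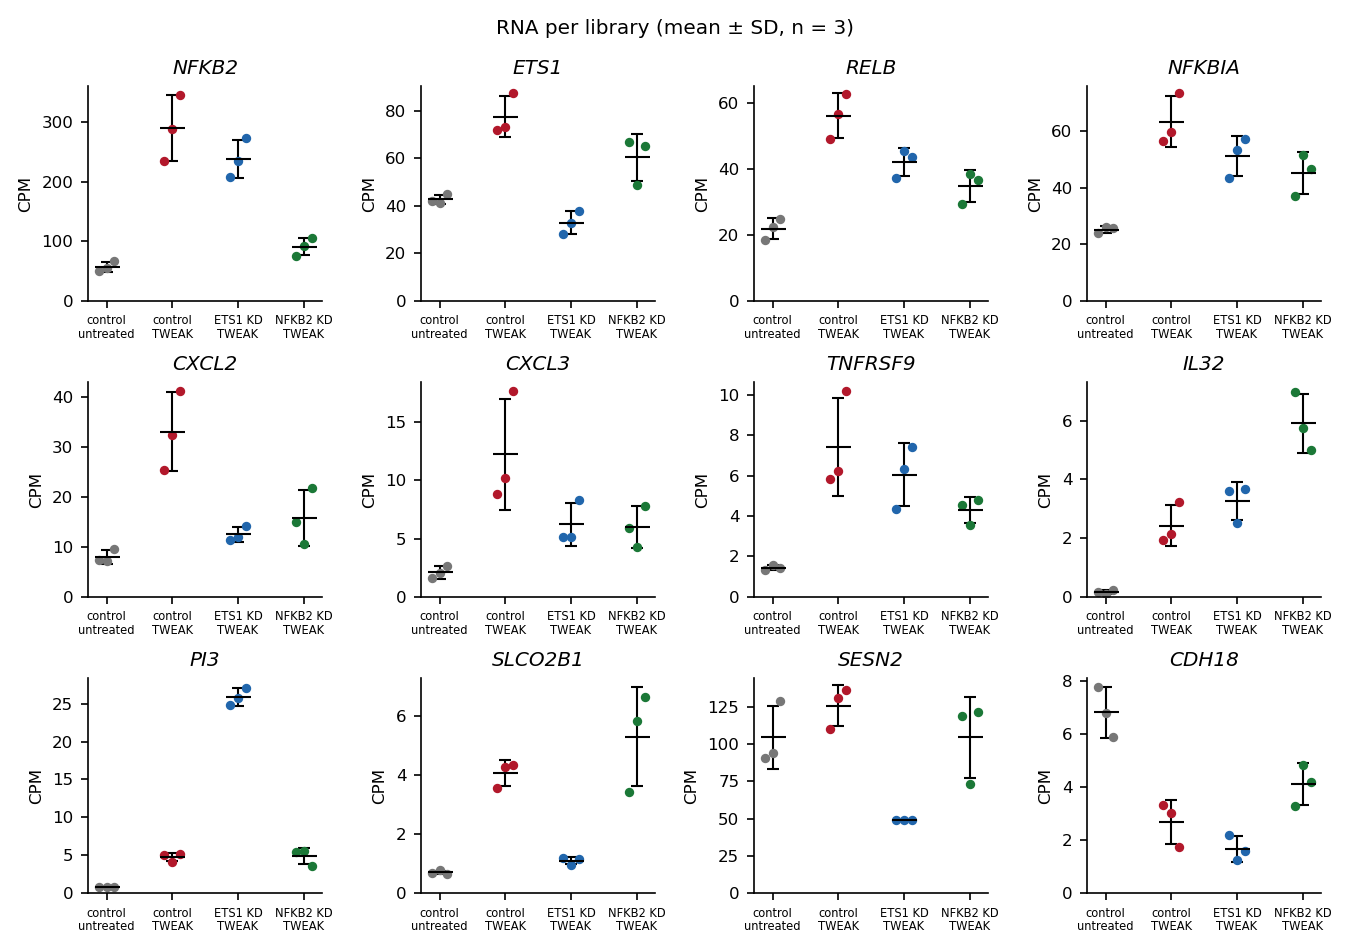
RNA level in CPM of 12 genes in each of the 12 libraries, by group, with the mean and SD (n = 3). *NFKB2*, *RELB*, *NFKBIA*, *CXCL2*, *CXCL3*, *TNFRSF9*, *IL32*, *PI3* and *SLCO2B1* rise from untreated to TWEAK without overlap, and *PI3* is highest (24.8 to 27.1 CPM) and *SLCO2B1* low (0.95 to 1.17 CPM) in *ETS1* KD cells.

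The next comparisons set each KD against TWEAK control cells, both under TWEAK. They share the TWEAK control libraries with the comparison above and with each other, so no agreement between them is counted. In *ETS1* KD cells 2 of the 577 genes rose (0.347%, against 0.255% of all genes tested) and 6 fell (1.04%, against 1.13%). By the study's thresholds 9 rose (1.56%, against 1.15%) and 25 fell (4.33%, against 4.52%). All these shares were near the background, and the median log2 fold change was −0.01 for the genes with a site and 0.01 for all genes. The calls were fewer than under DESeq2 (21) or without the filter on low counts (26).

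*SLCO2B1* was 1.17, 0.95 and 1.14 CPM in *ETS1* KD cells, below its TWEAK control libraries (−1.90 ± 0.24, adjusted p = 0.00172), and in *NFKB2* KD cells it was 3.42, 5.82 and 6.66 CPM. *SESN2*, a stress-induced inhibitor of mTORC1 signalling, was 110, 131 and 137 CPM in TWEAK control cells and 48.9, 49.0 and 48.8 CPM in *ETS1* KD cells (−1.37 ± 0.19, adjusted p = 0.00301). The lncRNA gene *ENSG00000269826* was 1.33, 1.29 and 1.67 CPM and then 0.147, 0.0613 and 0.172 CPM (−3.45 ± 0.41, adjusted p = 0.000956). In all 3 genes the groups stood apart. The adaptor gene *SH2D3C* fell by 2.22 on the log2 scale (adjusted p = 0.00875), a call lost without *ETS1* KD replicate 2 or 3 (−2.19 and −2.05), and *CXCL2* and *CRYM* (adjusted p = 0.023) were the other genes that fell.

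*PI3* rose further in *ETS1* KD cells, to 24.8, 25.7 and 27.1 CPM (2.45 ± 0.17, adjusted p = 3.15e-05), all above every other library. *C3*, the central complement component, was 32.6, 54.3 and 80.1 CPM in TWEAK control cells and 148, 109 and 178 CPM in *ETS1* KD cells (1.38 ± 0.28, adjusted p = 0.0282). Its call was lost without *ETS1* KD replicate 1 or 3 or TWEAK control replicate 1 or 2 (1.35, 1.21, 1.11 and 1.35). Neither promoter had an ETS1 peak in any library.

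In *NFKB2* KD cells, *NFKB2* itself was the gene of the 577 that fell (0.173%, against 0.0237% of all genes tested), and 0 rose by edgeR (background of 0.00592%). At an unadjusted p below 0.05, 15 rose and 22 fell, and DESeq2 called 6 in all, of which 1 rose. By the study's thresholds 8 rose (1.39%, against 1.26%) and 9 fell (1.56%, against 0.989%). In simulated counts for this comparison, with 200 of 16879 genes changed, 44% of 2-fold changes and 3% of 1.5-fold changes were recovered, so changes of the latter size were mostly not detectable.

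The *ETS1* KD and *NFKB2* KD cells were also compared with each other in the same model. Of the 577 genes, 6 were higher in *ETS1* KD cells (1.04%, against 0.533% of all genes tested) and 11 were lower (1.91%, against 1.4%). *NFKB2* was higher by 1.39 ± 0.17 (adjusted p = 0.00233) and *PI3* by 2.41 ± 0.17 (adjusted p = 4.5e-05), while *SLCO2B1* was lower by a log2 difference of −2.28 ± 0.24 (adjusted p = 0.000926) and *SESN2* by −1.10 ± 0.19 (adjusted p = 0.0112). *CDH18*, which fell with TWEAK, was lower by −1.30 ± 0.27 (adjusted p = 0.0289). The 17 calls became 5 without *ETS1* KD replicate 3, 7 without *ETS1* KD replicate 2 or *NFKB2* KD replicate 3, 10 without *ETS1* KD replicate 1 and 11 without *NFKB2* KD replicate 2.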

How the data were processed

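The authors aligned reads to hg38 with Bowtie2 (ChIP-seq) or STAR (RNA-seq), called peaks with MACS2 against input, removed blacklisted regions and counted reads per gene with featureCounts. The deposited counts are whole numbers per gene and library, not normalised. In each deposited peak list, the fold enrichment (a ratio), the −log10 p- and q-values and the peak score were written by the authors' peak caller for single libraries. Versions are not given in the sources used here. The 3 input samples were not analysed here.

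Members, gene lists and tests were chosen with earlier results of these data known. Peaks were merged (1 bp overlap) and matched to transcript starts of GENCODE release 44, as stated with the results. Where several peaks met a site, the one with the highest −log10 q-value was used, with ties broken by fold enrichment. Motifs were searched in the 200 bp around the summit. Counts were analysed with edgeR 4.0.16 (R 4.3.3): TMM, filterByExpr and the quasi-likelihood F-test over all 12 libraries, with no covariate. DESeq2 1.42.0, RLE size factors, no filter, each library left out, a wider window (2000 bp upstream, 500 bp downstream), a stricter q-value and equal numbers of peaks were alternatives. Shares were compared by exact permutation of libraries (SciPy 1.17.1). Named genes were the protein-coding genes of the 12 strongest sites, the 10 largest rises and 5 largest falls, members of the gene lists, and for each KD the 5 largest falls and 3 largest rises among genes called, with *NFKB2*, *ETS1* and *ERN1*. Scripts were tested on simulated data. RNA totals of 28384201 to 40192606 counts set the precision. Peak lists give no depth. Some members of the lists are not reported here.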

Additional observations from a re-analysis of the deposited data

How the results depend on the processing

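Directions were followed for the genes described individually, in the comparisons for TWEAK, *ETS1* KD and *NFKB2* KD. None of those called reversed its direction there under any alternative model or with a library left out. *CRYM* and the calls between the KDs were not followed in this way. The TWEAK log2 fold changes of 6 named genes that were not called lay on both sides of 0 over the settings (*BCL3* −0.21 to 0.50, *CSF1* −0.17 to 0.30, *GPBP1* −0.08 to 0.30, *NECAB3* −0.16 to 0.05, *AIM2* −0.02 to 0.29 and *BCL2L1* −0.01 to 0.06). The 45 calls for TWEAK ranged from 16 to 42 when libraries were left out singly, the 8 for *ETS1* KD from 5 to 6, the 1 for *NFKB2* KD stayed at 1, and the 17 for the difference between KDs ranged from 5 to 24. DESeq2 gave 21, 6 and 38 calls for *ETS1* KD, *NFKB2* KD and their difference, no filter on low counts gave 26, 8 and 35, and the study's thresholds gave 34, 17 and 35. The wider window gave 2 for *NFKB2* KD. Numbers of replicates did not pair the libraries (correlations of same-numbered libraries between −0.304 and 0.492). With a replicate block the calls were 52, 12, 1 and 20 in the order above. Untreated replicates 1 and 2 correlated with TWEAK replicate 1 (0.396 and 0.369) and inversely with TWEAK replicates 2 and 3 (−0.365 to −0.144). Untreated replicate 3 correlated with TWEAK replicates 2 and 3 (0.235 and 0.492) and inversely with TWEAK replicate 1. This grouping cuts the untreated and TWEAK groups unevenly, so the TWEAK comparison may be partly confounded with it. No model held this grouping, and its effect was not tested.

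With TWEAK p52 lists left out singly, the 611 sites became 621 to 2252, the mean untreated p52 share of 1.23% became 0.577 to 1.93%, that of *ETS1* KD (72.5%) 27.7 to 70.8%, that of Pol II after TWEAK (59.5%) 53.2 to 55.5%, and the κB share 51.7 to 68.1%. The wider window gave 1.64% for untreated p52 and 53.2% for Pol II. Lists of equal number gave 16.5% for *ETS1* KD p52, 5.81% for ETS1 and 48.8% for Pol II. The whole site in place of 200 bp gave a κB share of 75.5%. The difference by κB match ranged from 2.53 to 6.04 points when RNA libraries were left out, an alternative chosen after seeing the data, as was leaving out sites with untreated p52 or non-coding genes. In simulated counts for TWEAK, 49% of 2-fold and 3% of 1.5-fold changes were recovered, and depth was not varied. The cause of each shift was not tested.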
